A study of Mus musculus with 6 samples.

Results

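The genes described here encode the main families of splicing factors: SR proteins (Srsf genes), hnRNPs (Hnrnp genes), the SF3A and SF3B subunits of the U2 snRNP (Sf3a and Sf3b genes), the Sm and other protein components of the U snRNPs (Snrp genes), and U2AF. They were chosen by symbol alone, as every row of the count table whose Ensembl identifier maps to a mouse symbol beginning with Srsf, Hnrnp, Sf3a, Sf3b, Snrp or U2af followed by the family's letter or number. This gave 55 of 21965 genes, of which 11 were SR, 20 hnRNP, 9 SF3, 12 U snRNP and 3 U2AF genes.

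The libraries are polyA-selected RNA of interstitial macrophages, which live in the lung's connective tissue and not in its airspaces, isolated with antibodies from C57Bl/6 mice of 6 to 8 weeks. The WGP group had received WGP, a preparation of β-glucan from yeast cell walls, at 1 mg into the peritoneum for 6 days, and the PBS group had received phosphate-buffered saline the same way. Lungs of both groups were taken on day 7, and each group had 3 libraries. The labels name no allele or transgene and do not say whether a library holds 1 mouse or several, so the p-values rest on the spread among these libraries alone.

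Introns are removed by the spliceosome, a machine of small nuclear RNAs and proteins that assembles anew on each transcript. U1 snRNP marks the upstream splice site, and U2AF and then U2 snRNP, with its SF3A and SF3B subunits, mark the branch point and the downstream site. SR proteins bind exons through RNA recognition motifs and recruit these components through tails rich in arginine and serine, while hnRNPs coat the transcript and often block splice sites, so that the balance of both families helps to choose exons. In macrophages such proteins also act after splicing. The hnRNP D protein AUF1, for example, binds AU-rich elements and speeds the decay of inflammatory mRNAs.

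Totals ran from 18254678 to 20346517 counts per library. Of the sorted cell's defining markers, the general macrophage gene Cd68 lay between 754 and 770 CPM after WGP and between 771 and 828 CPM after PBS. Mertk, a receptor for dying cells, lay between 17.0 and 24.4 CPM after WGP and between 126 and 199 CPM after PBS. Of 20 interstitial macrophage genes in all, 3 were higher and 5 lower (8147 to 9616 CPM summed after WGP, against 10088 to 11020 CPM after PBS). Markers of several other cells differed between the groups. Of 13 classical monocyte genes 12 were higher and 1 lower after WGP, with a summed level of 13189 to 16593 CPM, against 9026 to 10036 CPM after PBS. The lower gene was Chil3, at a mean of 751 CPM after WGP and 3478 CPM after PBS. Chil3 is also among the 18 alveolar macrophage genes and counts in both sums. Of 18 alveolar macrophage genes 17 were lower (1324 to 1688 CPM after WGP, against 5235 to 7891 CPM), as were 9 of 12 epithelial genes (20.1 to 87.2 CPM, against 414 to 842 CPM) and 10 of 12 endothelial genes (171 to 239 CPM, against 488 to 507 CPM). Dendritic cell genes were lower in 4 of 10 (118 to 178 CPM after WGP, against 326 to 413 CPM), fibroblast genes in 3 of 12 (25.1 to 83.8 CPM, against 117 to 161 CPM), T and NK cell genes in 2 of 11 (27.7 to 90.1 CPM, against 81.6 to 169 CPM) and B cell genes in 1 of 9 (64.5 to 127 CPM, against 137 to 157 CPM). Of 11 neutrophil genes 1 was higher (1603 to 3132 CPM, against 1269 to 2809 CPM), and of 10 nonclassical monocyte genes none passed (8493 to 10602 CPM, against 9171 to 10986 CPM), with 2 at an unadjusted p under 0.05 in edgeR. Of these lists only the alveolar gene Kcnip4 was at 0 in all WGP libraries, and none was at 0 in all PBS libraries. Of 13 dissociation and heat shock genes 9 were lower and 4 did not pass, and of 18 cell cycle genes 7 were lower and 11 did not pass. The part of these shifts in the results below was not tested, and in bulk RNA fewer cells of a type and less RNA per cell cannot be told apart. Y-linked transcripts summed to 205 to 227 CPM after WGP, and to 112, 179 and 9.79 CPM in PBS replicates 1, 2 and 3. All PBS libraries lay below all WGP libraries, PBS replicate 3 the furthest, so Y-linked level and treatment cannot be fully told apart. With this level as a covariate, 8 members were higher and 1 lower (24.9% of all genes changed). Hnrnpab, Hnrnpa0, Srsf7 and Snrpd1, described below among the lower genes, did not pass, nor did Snrpa, described among the higher genes. Srsf9 and Snrpb2 passed with the covariate but not without it. WGP replicate 1 lay apart from the other WGP libraries on the second principal component, which held 13.8% of the variance.

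The families were well expressed and moved little. Of 53 members tested, 7 were higher and 5 lower after WGP, which is 22.6%, below the 31.0% of all 12305 genes tested that changed (15.2% higher and 15.7% lower). Among genes with a mean of at least 10 CPM, as all but 1 of the tested members have, 35.6% changed. No tested member reached a change of 1.5-fold in either direction, against 29.4% of all genes tested and 17.0% of those with at least 10 CPM. The median size of a log2 fold change was 0.12 over the members, 0.31 over all genes tested and 0.23 over those with at least 10 CPM. A positive log2 fold change, printed with its SE, means a higher level after WGP. Every adjusted p comes from the quasi-likelihood test of edgeR, was adjusted by Benjamini-Hochberg across all genes in the fit, and counts as passed below 0.05. Srsf12 and Snrpn had too few counts to be tested.

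In 25 of the 53 members (47.2%) all WGP libraries were on one side of all PBS libraries, near the 48.1% of all genes tested. Fewer members were called in 5 of the 6 refits without 1 library. Without PBS replicate 1, 3 members were called, where 19.9% of all genes were (1 higher and 2 lower, against 9.63% and 10.3% of all genes), and without WGP replicate 3 they were 4, where 23.5% of all genes were. They were 5 without PBS replicate 2 (23.6% of all genes), 6 without WGP replicate 1 (27.3%), 8 without WGP replicate 2 (29.4%) and 12 without PBS replicate 3 (27.2%). The scaling of the libraries set the balance of directions. With library sizes alone, 1 member was higher and 8 were lower (30.0% of all genes changed), and with upper quartile scaling 1 was higher and 6 were lower (29.8%). The size factors of DESeq2 gave 11 members (30.9% of all genes), DESeq2 itself 11 (33.5%), limma-voom 12 (32.2%) and the replicate number as a block 9 (25.9%). Library sizes alone also put the median of all genes at -0.12, against -0.02 with TMM scaling, and the share of changed genes that were higher was then 33.4% in place of 49.2%. The direction of each of the 12 called members was the same under all 18 alternative settings.

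**Figure D1:**
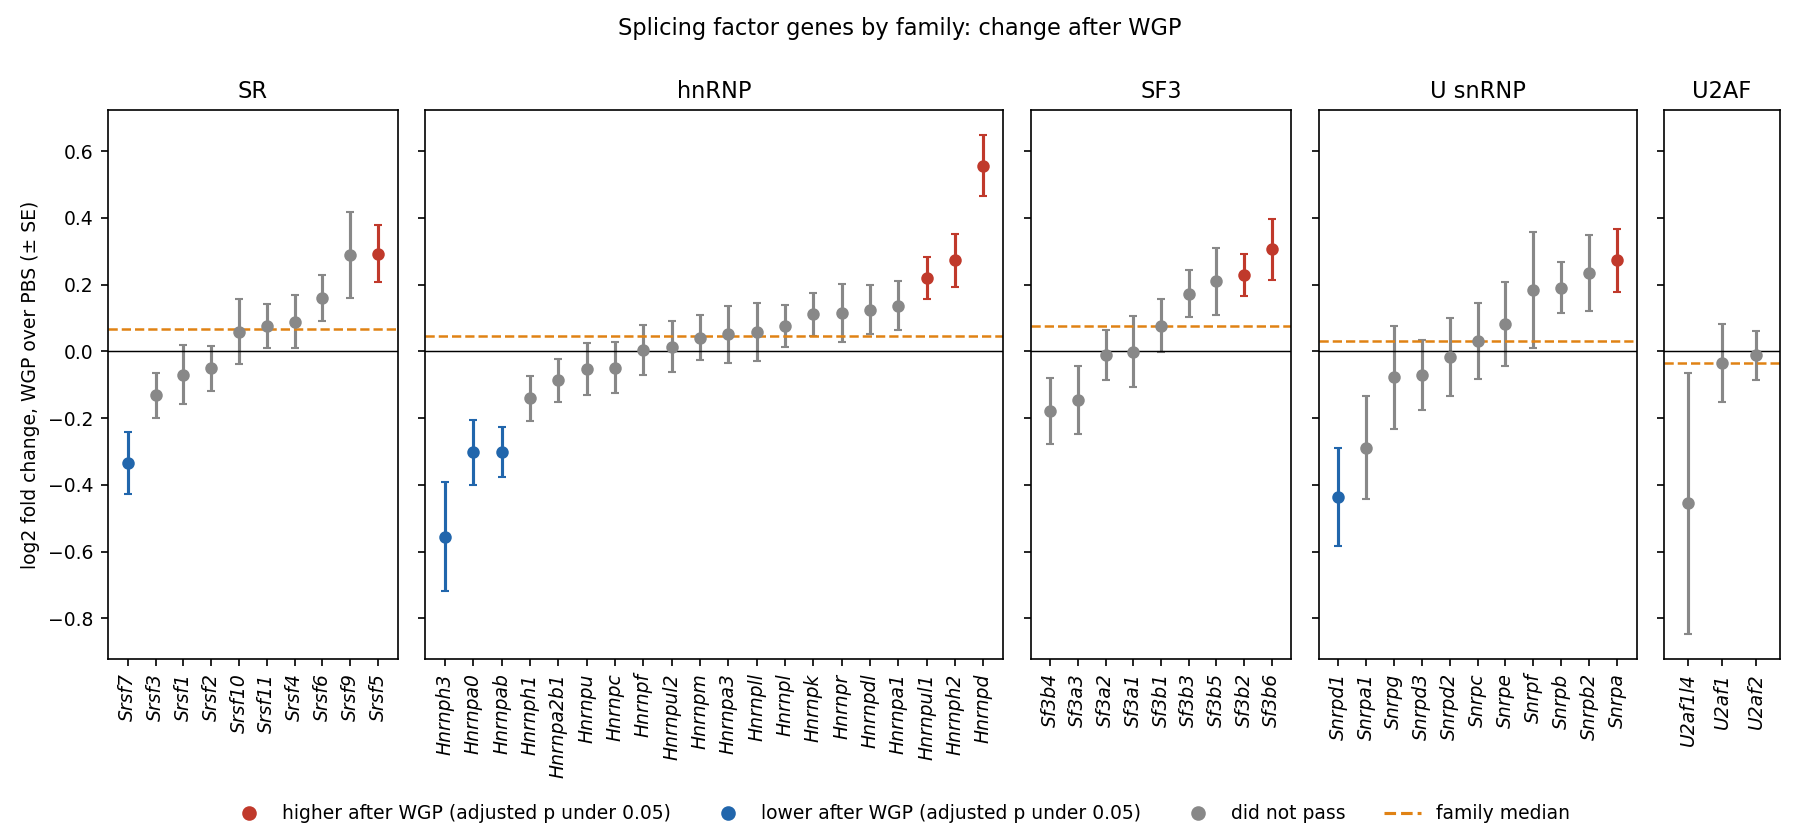
Log2 fold change of WGP over PBS for each of the 53 tested members, with its SE, ordered within the 5 families. Red and blue points passed adjusted p under 0.05, grey points did not, and the dashed line is the family median, which lay between -0.04 and 0.08. With library sizes alone as the scaling every median lay below 0.

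By family, 6 of 20 hnRNP genes changed, 2 of 10 SR genes, 2 of 9 SF3 genes (22.2%), 2 of 11 U snRNP genes (18.2%) and 0 of 3 U2AF genes. Over all genes tested the share was 31.0%. Median log2 fold changes were 0.05 for the hnRNP, 0.07 for the SR, 0.08 for the SF3, 0.03 for the U snRNP and -0.04 for the U2AF genes, beside -0.02 over all genes tested and 0.06 over those with at least 10 CPM. With library sizes alone the medians were -0.06 (hnRNP), -0.04 (SR), -0.02 (SF3), -0.07 (U snRNP) and -0.14 (U2AF). The medians lie closer together than the lowest and highest member of any single family, and the difference between families was not tested. The hnRNP genes together held 4207 ± 63.1 CPM after WGP and 4125 ± 78.4 CPM after PBS (mean ± SD, n = 3 each, as for all levels below). The SR genes held 1344 ± 48.3 CPM after WGP and 1285 ± 48.4 CPM after PBS. The SF3 genes held 1619 ± 48.1 CPM after WGP and 1504 ± 66.7 CPM after PBS. The smaller sums were those of the U snRNP genes, with 464 ± 7.46 CPM after WGP and 435 ± 18.1 CPM after PBS, and of the U2AF genes, with 188 ± 9.53 CPM after WGP and 191 ± 1.57 CPM after PBS. Sums of the SR, hnRNP and U2AF genes overlapped between the groups, while the SF3 sum (1590 to 1675 CPM after WGP, 1428 to 1555 CPM after PBS) and the U snRNP sum (457 to 472 CPM, against 421 to 455 CPM) did not. The sum over all genes tested, which the TMM factors alone set, did not overlap either and was 7.33% higher after WGP. The SF3 sum was 7.69% and the U snRNP sum 6.87% higher. Both gaps are thus near in size to that of all genes tested together. The same scaling applied to the SR, hnRNP and U2AF sums, which overlapped between the groups. What part the scaling had in either gap was not tested, and the gaps are not read as changes of these families.

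Hnrnpd stood out among the hnRNP genes. It encodes AUF1, which binds AU-rich elements of mRNA, and lies on chromosome 5 (GRCm38, 99955935 to 99978938, ENSMUSG00000000568). It was at 148, 146 and 161 CPM in WGP replicates 1 to 3 and at 107, 89.8 and 112 CPM in PBS replicates 1 to 3. All WGP libraries were above all PBS libraries. The log2 fold change was 0.56 ± 0.09 (adjusted p = 0.0012), the highest of the 53 members, and it was the only member called in all 18 alternatives, with log2 fold changes between 0.45 and 0.76 and adjusted p of at most 0.0092. An antisense transcript, Gm17092, overlaps 385 bases of its exons and was not analysed here.

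The closest relatives of Hnrnpd were not called higher. Hnrnpab, which encodes a relative of AUF1 found in mRNA-binding complexes, was at 162, 185 and 168 CPM after WGP and at 217, 200 and 218 CPM after PBS (-0.30 ± 0.08, adjusted p = 0.012). The WGP libraries were the lower ones, without overlap, but the call was lost without PBS replicate 1 or WGP replicate 3, where adjusted p reached 0.053. Exons of Hnrnpab (chromosome 11, 51600100 to 51606847) share 809 bases with those of Phykpl on the other strand, a gene that was higher after WGP (10.8 CPM, against 6.14 CPM after PBS), and without a stated strand setting their reads cannot be told apart. Hnrnpdl, the other gene of this group, had a change in the direction of Hnrnpd that did not pass. It was at 170 CPM after WGP and 156 CPM after PBS (0.12 ± 0.07, adjusted p = 0.23). Summed over the 3 genes the level was 493 ± 8.94 CPM after WGP and 470 ± 26.7 CPM after PBS, with overlap between the groups. Within each library the ratio of Hnrnpd to Hnrnpab, which no scaling moves, was 0.915, 0.791 and 0.953 after WGP and 0.493, 0.450 and 0.515 after PBS. This pair was chosen for its opposite calls, so the gap between the groups in this ratio is a description only.

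The H and F group of hnRNPs, which bind runs of guanines and act on exon choice and polyadenylation, also split. Hnrnph2 (chromosome X, 134601179 to 134607060) was at 77.4, 83.5 and 84.1 CPM after WGP and at 65.8, 66.1 and 70.8 CPM after PBS (0.27 ± 0.08, adjusted p = 0.022). Hnrnph3 (chromosome 10, 63014664 to 63024217) was at 16.4, 12.4 and 16.1 CPM after WGP and at 19.7, 25.3 and 21.1 CPM after PBS (-0.56 ± 0.16, adjusted p = 0.024). The groups did not overlap in either gene. Hnrnph1 (adjusted p = 0.14) and Hnrnpf (adjusted p = 0.98) did not pass. The 4 genes summed to 467 ± 10.5 CPM after WGP and 485 ± 11.2 CPM after PBS. Leaving out either of PBS replicates 1 and 2 or of WGP replicates 2 and 3 ended the call of Hnrnph2 (adjusted p of up to 0.091). Upper quartile scaling and library sizes alone also ended it. The call of Hnrnph3 was lost without replicate 2 of either group (adjusted p of up to 0.092). Exons of Hnrnph3 share 115 bases with those of Rufy2 on the other strand. Rufy2 was at a mean of 13.4 CPM after WGP and 10.7 CPM after PBS and did not pass. Without a stated strand setting, reads on the shared bases cannot be told apart.

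The promoters of these 4 genes are shown because members of the same group changed in opposite directions. Each is the RefSeq window from 250 bases before to 50 bases after the start on GRCm38.p6, written 5′ to 3′ on the gene's strand. Capitals mark matches, on either strand, to the GC box GGGCGG, the CCAAT box CCAAT, the ETS core CCGGAA, the TATA box TATAAA or the E-box CACGTG. The core of the interferon-stimulated response element, 2 copies of TTTC set 2 bases apart, was also searched and is in none of the 4. No marked sites overlap.
Hnrnpd, chr5:99978889-99979188, minus strand: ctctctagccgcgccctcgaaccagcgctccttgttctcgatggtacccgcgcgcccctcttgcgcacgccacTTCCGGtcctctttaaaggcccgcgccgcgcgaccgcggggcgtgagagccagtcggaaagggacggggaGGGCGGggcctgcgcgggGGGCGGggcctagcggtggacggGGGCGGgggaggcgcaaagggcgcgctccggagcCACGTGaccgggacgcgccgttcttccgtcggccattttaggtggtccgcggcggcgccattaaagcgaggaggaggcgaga
Hnrnpab, chr11:51606832-51607131, minus strand: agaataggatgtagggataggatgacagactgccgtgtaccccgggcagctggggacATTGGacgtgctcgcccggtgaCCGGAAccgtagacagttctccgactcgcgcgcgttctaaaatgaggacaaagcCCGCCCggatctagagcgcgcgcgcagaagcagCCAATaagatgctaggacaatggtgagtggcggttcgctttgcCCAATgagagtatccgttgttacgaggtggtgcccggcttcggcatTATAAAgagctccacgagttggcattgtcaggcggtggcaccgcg
Hnrnph2, chrX:134600929-134601228, plus strand: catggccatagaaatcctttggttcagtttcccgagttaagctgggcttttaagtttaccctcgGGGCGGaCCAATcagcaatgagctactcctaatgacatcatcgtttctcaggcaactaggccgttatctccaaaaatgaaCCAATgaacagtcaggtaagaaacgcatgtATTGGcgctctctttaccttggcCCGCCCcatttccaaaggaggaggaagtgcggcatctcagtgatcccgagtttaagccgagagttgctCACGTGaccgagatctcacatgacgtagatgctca
Hnrnph3, chr10:63023800-63024099, minus strand: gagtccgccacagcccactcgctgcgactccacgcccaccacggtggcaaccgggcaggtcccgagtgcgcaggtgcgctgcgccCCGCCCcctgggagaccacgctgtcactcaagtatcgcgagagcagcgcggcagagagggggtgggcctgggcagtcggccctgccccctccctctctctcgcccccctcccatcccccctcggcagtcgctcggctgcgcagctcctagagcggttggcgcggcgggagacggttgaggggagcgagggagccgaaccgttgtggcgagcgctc

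Hnrnpd has 3 GC boxes, 1 ETS core, 1 E-box and no CCAAT box, in a window of 72.3% G and C. Hnrnpab has 3 CCAAT boxes and 1 each of the GC box, ETS core and TATA box, with 58.3% G and C. Hnrnph2 has 3 CCAAT boxes, 2 GC boxes and 1 E-box, with 49.0% G and C, and the only marked site of Hnrnph3 is 1 GC box, with 73.0% G and C. Of the 53 tested members 46 had such a window, as did 9768 of all genes tested. An E-box was in 6 of the 46 and in 11.6% of the 9768. Of those 6 members, 5 were hnRNP genes. By call they were 3 of the 7 higher, 0 of the 4 lower and 3 of the 35 members that did not pass. In the same order the GC box was in 6, 4 and 23 members and the CCAAT box in 3, 2 and 18. The ETS core was in 4, 2 and 17, and the TATA box in 1, 1 and 4. Whether any motif goes with the direction of change was not tested. The GC box was in 33 of the 46 (71.7%) and in 67.7%. The CCAAT box was in 23 of the 46 and in 42.9% of the 9768, the ETS core in 23 and in 31.3%, and the TATA box in 6 and in 8.94%. None of the 46 held the interferon element core, which 3.99% of the 9768 did. These are matches of letters in a window, not sites of binding.

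Among the other hnRNP genes, Hnrnpul1 (chromosome 7, 25721165 to 25754757), whose product binds RNA and takes part in DNA repair, was at 367, 354 and 373 CPM after WGP and at 315, 306 and 319 CPM after PBS (0.22 ± 0.06, adjusted p = 0.024). Hnrnpa0 (chromosome 13, 58125879 to 58128556), which binds AU-rich elements of inflammatory mRNAs, was at 76.5, 74.4 and 70.6 CPM after WGP and at 104, 83.6 and 85.1 CPM after PBS (-0.30 ± 0.10, adjusted p = 0.036). Neither gene's groups overlapped, and PBS replicate 1 was the highest library for Hnrnpa0. Each call was lost in 4 of the 6 refits without 1 library. For Hnrnpul1 these were PBS replicates 1 and 2 and WGP replicates 1 and 3 (adjusted p of up to 0.076). For Hnrnpa0 they were PBS replicate 1 and each WGP replicate (up to 0.16). The Hnrnpul1 call was also lost with upper quartile scaling and with library sizes alone. Hnrnpa2b1, the hnRNP gene with the highest mean CPM over all 6 libraries (after WGP Hnrnpk was higher, at 449 CPM), whose product binds and sorts RNA, was at 419, 432 and 443 CPM after WGP and at 449, 471 and 454 CPM after PBS. All WGP libraries were lower, yet the change did not pass (-0.09 ± 0.06, adjusted p = 0.34), except with library sizes alone (0.034). The 14 hnRNP genes that did not pass had log2 fold changes between -0.14 and 0.14. They include Hnrnpa1, Hnrnpc, Hnrnpk, Hnrnpl, Hnrnpm and Hnrnpu.

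The SR genes gave 1 change in each direction. Srsf5 (chromosome 12, 80945504 to 80950507), the one with the most counts, was at 326, 337 and 352 CPM after WGP and at 246, 277 and 305 CPM after PBS (0.29 ± 0.08, adjusted p = 0.023). Srsf7 (chromosome 17, 80200080 to 80207307), whose product also couples splicing to nuclear export, was at 74.9, 86.0 and 89.7 CPM after WGP and at 99.7, 101 and 116 CPM after PBS (-0.33 ± 0.09, adjusted p = 0.019). The groups overlapped in neither gene. Srsf5 made up 25.2% ± 0.65 of the family's CPM after WGP and 21.4% ± 1.56 after PBS, and Srsf7 6.21% ± 0.38 after WGP and 8.19% ± 0.39 after PBS. The ratio of Srsf5 to Srsf7 was 4.35, 3.92 and 3.92 after WGP and 2.47, 2.75 and 2.63 after PBS, again for a pair chosen for its opposite calls. The Srsf5 call did not hold once any of PBS replicates 1 and 2 and WGP replicate 3 was left out (adjusted p of up to 0.105). It was also lost with upper quartile scaling and with library sizes alone. The Srsf7 call was lost without PBS replicate 3 or WGP replicate 1 (adjusted p of up to 0.070). Over the 6 refits without 1 library the log2 fold change of Srsf5 lay between 0.21 and 0.37 and that of Srsf7 between -0.39 and -0.26.

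The remaining 8 tested SR genes did not pass, with log2 fold changes between -0.13 and 0.29. Srsf9 was the nearest to Srsf5 in size (0.29 ± 0.13, adjusted p = 0.12), at 57.1, 66.2 and 61.5 CPM after WGP and 51.2, 40.9 and 59.2 CPM after PBS, and its groups overlapped. It passed without PBS replicate 3, which was its highest PBS library. Srsf3, the closest relative of Srsf7, was at 137, 142 and 140 CPM after WGP and at 146, 158 and 157 CPM after PBS (-0.13 ± 0.07, adjusted p = 0.17), without overlap, and passed only with library sizes alone. Srsf1, Srsf2, Srsf4, Srsf6, Srsf10 and Srsf11 were the others. Srsf12 had 2 counts in PBS replicate 3 and none elsewhere.

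**Figure D2:**
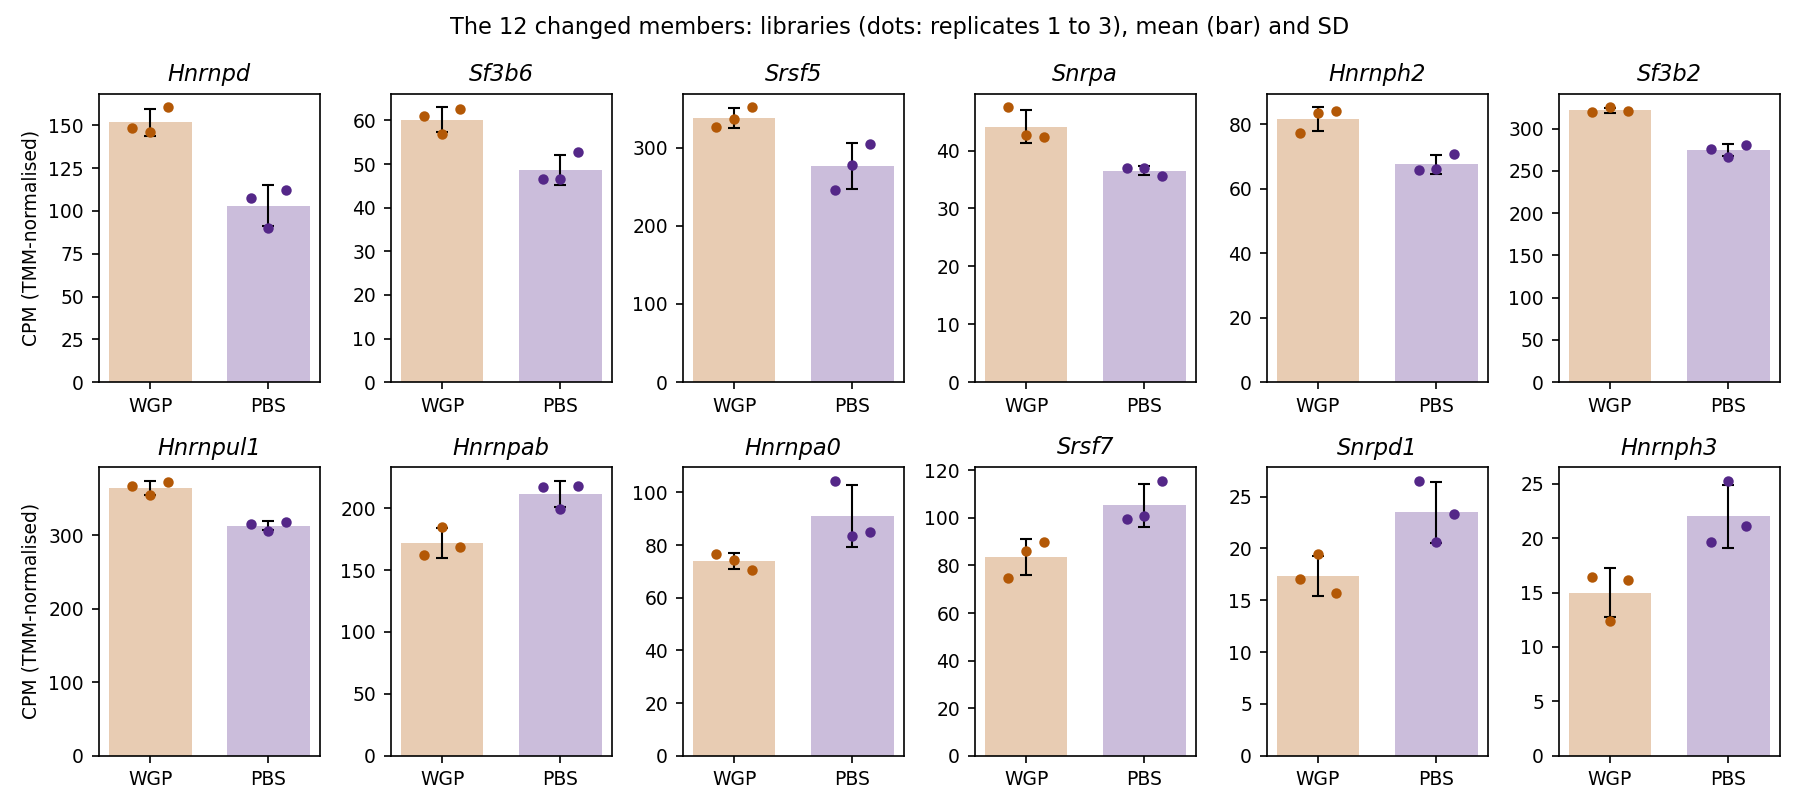
TMM-normalised CPM of the 12 changed members in each library (dots, replicates 1 to 3 from left to right), with the group mean as a bar and the SD as an error bar. WGP and PBS libraries do not overlap in any of the 12 genes, which passed a test on these same values, and the change is smaller than 1.5-fold in each.

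SF3A and SF3B hold U2 snRNP on the branch point. Of the 6 SF3B genes 2 rose and none fell, and of the 3 SF3A genes none passed, by edgeR at an unadjusted p under 0.05, with DESeq2 or with limma-voom. Among all genes tested 31.0% changed, and the difference between the complexes was not tested. Sf3b2 (chromosome 19, 5273932 to 5295455), a scaffold subunit, was at 320, 325 and 321 CPM after WGP and at 276, 267 and 281 CPM after PBS (0.23 ± 0.06, adjusted p = 0.018). Sf3b6 (chromosome 12, 4817544 to 4827659), the small subunit that contacts the branch point, was at 60.9, 56.9 and 62.5 CPM after WGP and at 46.6, 46.6 and 52.7 CPM after PBS (0.31 ± 0.09, adjusted p = 0.026). The groups did not overlap in these genes. Both calls were lost with upper quartile scaling, with library sizes alone and without PBS replicate 1 or 2, and that of Sf3b6 also without WGP replicate 1 or 3 (adjusted p over all alternatives of up to 0.15 and 0.11).

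Sf3b1, the subunit that clasps the branch point, held 51.4% ± 1.64 of the SF3 family's CPM after WGP and 52.5% ± 1.97 after PBS. It was at 811, 798 and 892 CPM after WGP and at 732, 852 and 787 CPM after PBS, with overlap between the groups, and did not pass (0.08 ± 0.08, adjusted p = 0.49). Of the other SF3B genes, Sf3b3 (0.17 ± 0.07, adjusted p = 0.084) and Sf3b5 (0.21 ± 0.10, adjusted p = 0.14) had all WGP libraries above the PBS libraries without passing. Sf3b4 had all WGP libraries below them (-0.18 ± 0.10, adjusted p = 0.20), at 29.1, 28.3 and 28.5 CPM after WGP and 32.4, 32.1 and 32.6 CPM after PBS.

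The U snRNP genes divide into the Sm proteins, which form the ring around each small nuclear RNA, and proteins particular to U1 or U2. Of 7 Sm genes tested, only Snrpd1 changed (14.3%, against 31.0% of all genes tested). Snrpd1 (chromosome 18, 10617775 to 10642079) was at 17.0, 19.4 and 15.7 CPM after WGP and at 26.5, 20.7 and 23.3 CPM after PBS (-0.44 ± 0.15, adjusted p = 0.043). The groups did not overlap, but leaving out either of replicates 1 and 3 of either group ended the call (adjusted p of up to 0.18). Snrpb, the Sm gene with the most counts, was at 181, 194 and 199 CPM after WGP and at 156, 169 and 179 CPM after PBS and did not pass (0.19 ± 0.08, adjusted p = 0.082), except without PBS replicate 3 (0.048) or at a threshold of 0.1. Of the 4 genes of U1 and U2 proteins, Snrpa (chromosome 7, 27187005 to 27196271), which encodes the U1 A protein, was at 47.5, 42.6 and 42.4 CPM after WGP and at 37.0, 37.0 and 35.6 CPM after PBS. Its call was marginal (0.27 ± 0.09, adjusted p = 0.049) and was lost whenever 1 library was left out and in 15 of 18 alternatives in all, with adjusted p between 0.048 and 0.32. Its exons share 327 bases with BC024978 on the other strand, a gene that did not pass.

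Snrpn, the imprinted relative of Snrpb, had no count in any WGP library and 4, 7 and 14 counts in PBS replicates 1, 2 and 3. Against a floor of 3 counts over the WGP group, with the 25 PBS counts taken as exact, it would be 8.08-fold lower after WGP. With no filter on low counts it did not pass (adjusted p = 0.076). Its exons overlap those of Snurf, which had no count in any library, and how reads on both genes were counted is not stated in the sources used here. The floor covers counting error in the WGP group only.

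No U2AF gene passed, by edgeR at an unadjusted p under 0.05, with DESeq2 or with limma-voom. U2af2, the large subunit that binds the polypyrimidine tract, was at 149, 151 and 170 CPM after WGP and at 155, 160 and 158 CPM after PBS (-0.01 ± 0.07, adjusted p = 0.92). The groups overlapped. U2af1l4, a relative of the small subunit, was at 1.80, 3.49 and 2.02 CPM after WGP and at 3.11, 3.17 and 3.75 CPM after PBS (-0.45 ± 0.39, adjusted p = 0.41), and 1 of its WGP libraries lay within the PBS range. The overlapping gene Gm49396 shares 1086 bases of its exons. U2af1, the small subunit itself, had -0.04 ± 0.12 (adjusted p = 0.85).

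Levels between genes were compared per length, as CPM per kilobase of exon sequence in GENCODE M21. After WGP the highest were Snrpb (97.0 ± 4.63), Srsf5 (84.8 ± 3.23), Sf3b1 (73.3 ± 4.50), Hnrnpa1 (70.4 ± 2.67), Hnrnpk (69.5 ± 2.58), Hnrnpa2b1 (65.5 ± 1.83) and Hnrnpab (61.8 ± 4.28 CPM per kilobase). After PBS they were Snrpb (85.0 ± 5.90), Hnrnpab (76.1 ± 3.76), Hnrnpa2b1 (69.5 ± 1.82), Sf3b1 (69.5 ± 5.28) and Srsf5 (69.2 ± 7.39 CPM per kilobase). Snrpb was first in both groups. Its range of mean ± SD lay above that of Srsf5 after WGP but overlapped that of Hnrnpab after PBS. Sf3b1, Hnrnpa1 and Hnrnpk after WGP, and Hnrnpa2b1, Sf3b1 and Srsf5 after PBS, lay within their SD of each other. U2af1l4 was the lowest tested member, at 1.47 ± 0.55 after WGP and 2.02 ± 0.22 CPM per kilobase after PBS.

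**Figure D3:**
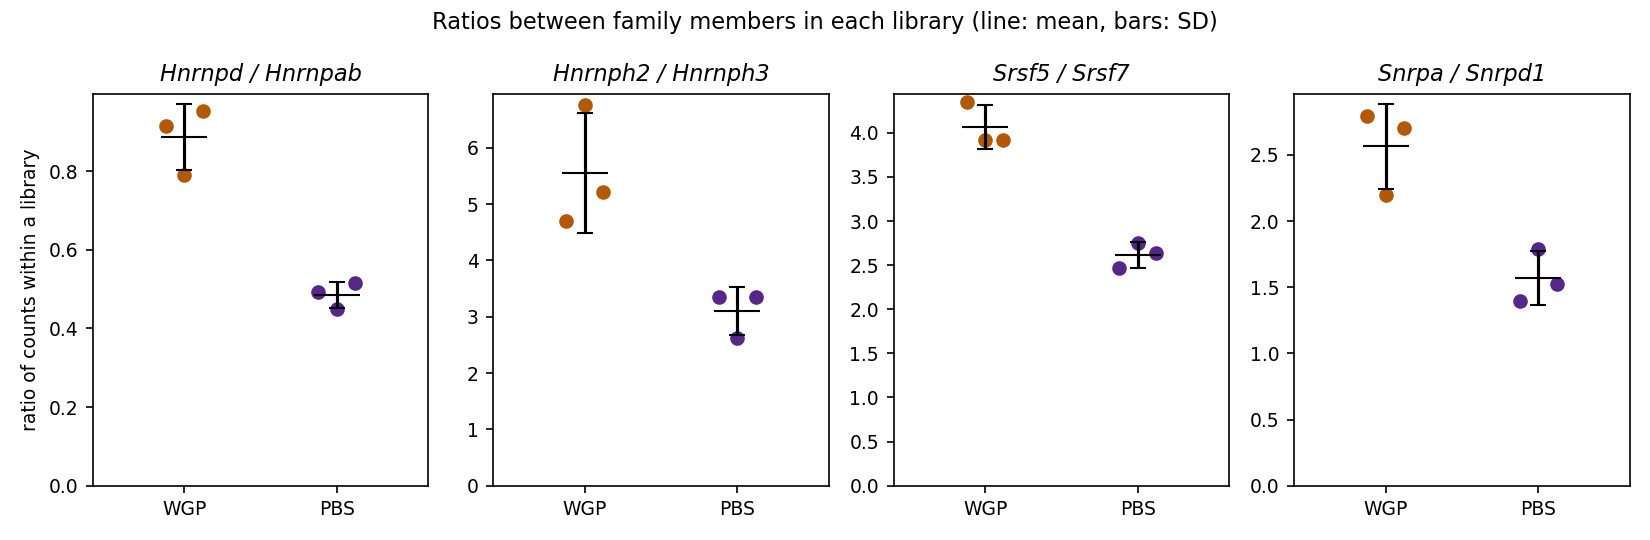
Ratio of the counts of 2 members of a family within each library (dots), with the mean as a line and the SD as bars, for pairs called in opposite directions. The Hnrnpd to Hnrnpab ratio was 0.887 ± 0.085 after WGP and 0.486 ± 0.033 after PBS, and the Snrpa to Snrpd1 ratio 2.56 ± 0.32 after WGP and 1.57 ± 0.20 after PBS. The pairs were picked for these calls.

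Other splicing genes, listed by role, were tested alongside. Of 186 tested, 28 were higher and 7 lower (18.8%), against 31.0% of all genes, but with library sizes alone 12 were higher and 16 lower. The median log2 fold change was 0.08. A total of 16 changed without PBS replicate 1 and 20 without WGP replicate 3. Relatives of SR proteins and SR-rich scaffolds had 7 of 23 higher and 1 lower (Tra2a), which is 34.8%. Arglu1, an arginine-rich coactivator that also acts on splicing, was at 103, 101 and 105 CPM after WGP and at 73.0, 67.1 and 71.3 CPM after PBS (0.55 ± 0.07, adjusted p = 0.00038). Srrm2, a scaffold of nuclear speckles (0.31 ± 0.07, adjusted p = 0.0056), Scaf4, which binds RNA polymerase II (0.36 ± 0.09, adjusted p = 0.0099) and Son, another speckle protein (0.26 ± 0.06, adjusted p = 0.010) rose too. All WGP libraries were above all PBS libraries in these genes.

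Among 15 kinase and phosphatase genes listed with SR proteins 2 rose and 1 fell. Srpk1, which phosphorylates SR proteins in the cytoplasm and so brings them into the nucleus, was at 52.9, 52.7 and 61.6 CPM after WGP and at 75.6, 79.4 and 73.2 CPM after PBS (-0.45 ± 0.09, adjusted p = 0.0037). The kinase gene Dyrk2 (0.49 ± 0.08, adjusted p = 0.0014) and the phosphatase gene Ppp1ca (0.33 ± 0.06, adjusted p = 0.0025) rose. These 3 calls held in all 18 alternatives, and Clk1, Clk2, Clk3 and Clk4, kinases of SR proteins in the nucleus, did not pass.

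Of 39 regulators of alternative splicing 7 rose and 3 fell (25.6%), where 31.0% of all genes tested changed. Mbnl1, which binds YGCY motifs and guides developmental exon choice, was at 501, 480 and 490 CPM after WGP and at 303, 303 and 341 CPM after PBS (0.63 ± 0.07, adjusted p = 0.00014). Rbm3, a cold-inducible RNA-binding protein (0.43 ± 0.07, adjusted p = 0.00086), and Ewsr1 (0.45 ± 0.07, adjusted p = 0.0013) rose, and Ybx1, which packages mRNA, fell (-0.30 ± 0.07, adjusted p = 0.0057). The groups did not overlap in any of the 4. Of 54 other core spliceosome genes 10 rose and 1 fell (Prpf3), which is 20.4%, against the same 31.0%. Dhx38, a helicase of the catalytic steps, was at 217, 220 and 242 CPM after WGP and at 140, 162 and 166 CPM after PBS (0.54 ± 0.08, adjusted p = 0.00092), and Prpf18 (0.34 ± 0.08, adjusted p = 0.0076) and Snrnp200 (0.23 ± 0.07, adjusted p = 0.023) rose too. Snrnp200, the helicase that unwinds U4 from U6, lost its call with upper quartile scaling, with library sizes alone and without any of PBS replicates 1 and 2 and WGP replicates 2 and 3.

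None of 25 LSm, SMN complex and Sm assembly genes and none of 11 minor spliceosome genes changed by edgeR, DESeq2 or limma-voom, with 1 and 0 genes at an unadjusted p under 0.05 in edgeR. Without WGP replicate 2, 2 of the assembly genes passed. Among all genes tested 31.0% changed, and whether these lists differ from other genes was not tested. Their members had median levels of 19.0 and 19.3 CPM, against 23.6 CPM over all genes tested.

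**Figure D4:**
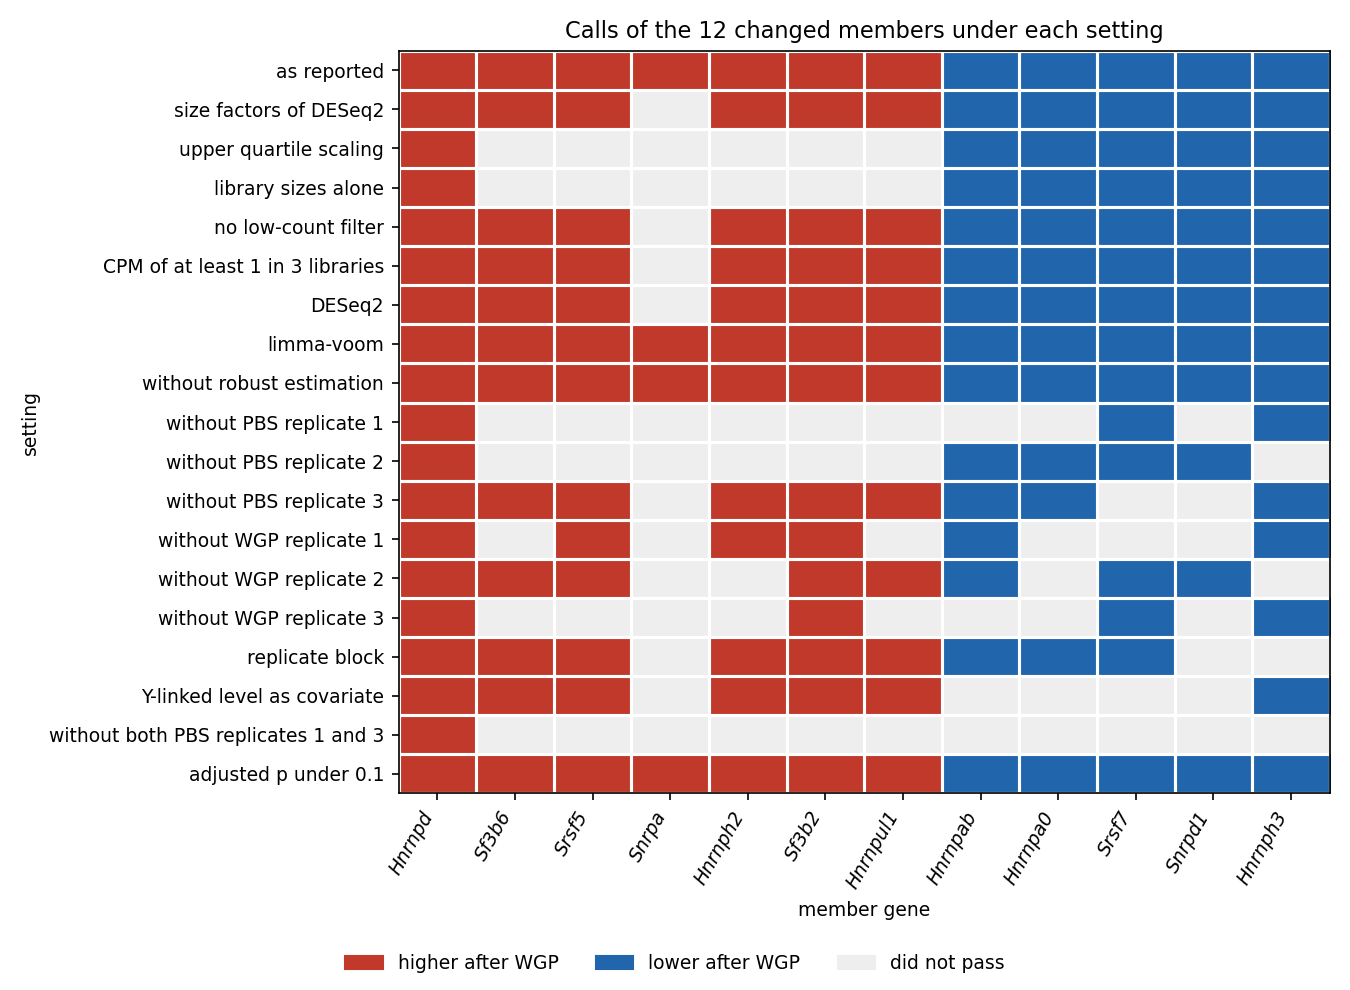
Calls of the 12 changed members (columns) as reported and under each of the 18 alternative settings (lines down the page). Red is higher after WGP, blue lower, and pale cells did not pass. Hnrnpd is red in every line and Snrpa in 4 of the 19.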

How the data were processed

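Counts per gene of 6 polyA-selected RNA-seq libraries (NuGEN Universal Plus mRNA-Seq, per the labels' protocols) are raw values that the authors deposited. HTSeq 0.10.0, FastQC 0.10.1 and the builds GRCm38 and mm10 are named per the submitters' processing notes. Neither the aligner nor the strand setting nor the authors' annotation is stated in them. GENCODE M21 (GRCm38) gave symbols for 21939 of 21965 identifiers, coordinates and exon lengths. Of the 55 members, 14 share exon sequence with another gene of the table, and reads of near-identical copies, such as processed pseudogenes of hnRNP and Sm genes, can be lost or shared.

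The fit of WGP against PBS used edgeR 4.0.16 in R 4.3.3 (filterByExpr, TMM, robust estimateDisp and glmQLFit, two-sided quasi-likelihood F test) over 12305 genes, with a threshold of 0.05. SEs were taken as the absolute log2 fold change over the root of F, and CPM use TMM factors. The biological coefficient of variation was 0.18. Replicates differed by a chi-square per degree of freedom of 13.5 to 24.8, so none repeats another. The script was tested on simulated data. DESeq2 1.42.0 and limma-voom (limma 3.58.1), other scalings and filters, omission of libraries, a Y-linked covariate and a replicate block were alternatives.

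The members, the gene lists and the tests were chosen with earlier results of these data known. All members could be named. Library values are given for members with adjusted p under 0.05 and for each family's most abundant gene and smallest p, and up to 4 called genes of each other list. The values of 1 such gene are not reported here. Srsf9, Srsf3, Sf3b3, Sf3b4, Sf3b5, Tra2a, Prpf3 and the pairs in the ratios were chosen after their values were seen. Protein sequences were not used here. RefSeq promoter windows (GRCm38.p6) matched 48 of the 55 members.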

Additional observations from a re-analysis of the deposited data

How the results depend on the processing

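Over the 6 refits without 1 library, the changed genes numbered 2491 to 3717, the changed members 3 to 12 (1 to 9 higher, 2 to 4 lower), the SR calls 1 to 2, the hnRNP calls 2 to 6, the SF3 and the U snRNP calls 0 to 2 each and the other listed splicing genes 16 to 37 (12 to 26 higher, 4 to 11 lower). Without both PBS replicates 1 and 3, where the lone PBS library is assumed to vary like the others, 1820 genes changed, with 2 members higher and 0 lower (SR 1, hnRNP 1, SF3 0, U snRNP 0) and 14 other splicing genes (10 higher, 4 lower). Upper quartile scaling left 7 members (1 higher; SR 1, SF3 0, U snRNP 1) and 18 other splicing genes higher and 11 lower. Library sizes alone left 1 member higher and 8 lower (SF3 0, U snRNP 1) and 12 other splicing genes higher and 16 lower, with medians of -0.0353 (SR), -0.0565 (hnRNP), -0.0246 (SF3), -0.0713 (U snRNP) and -0.14 (U2AF). The U snRNP count was also 1 with the size factors of DESeq2, with DESeq2 itself, with either other low-count filter and with the Y-linked covariate, which left 1 member lower, and at adjusted p under 0.1 it was 3 (U snRNP) and 3 (SF3), with 12 other splicing genes lower. The labels do not say that the replicate numbers pair the libraries. Deviations of same-numbered libraries correlated at -0.08 to -0.05 across genes, and 0 of 6 libraries correlated best with their own number. With 3 libraries per group such correlations cannot decide whether the libraries were paired. With the replicate block, 9 members changed, 3 of them lower, and U snRNP 0. Of the named genes Sf3b1 was at -0.0246 with library sizes alone and -0.0293 without both PBS replicates, and U2af2 ranged from -0.0708 to 0.0245 over the refits without 1 library, with 0.0172 without WGP replicate 2, and none of these passed. The cause of these shifts was not tested. Counts per gene do not separate isoforms, and the smallest log2 fold change called among the members was 0.22.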

Other observations

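GENCODE M21 lists at least 1 transcript marked for nonsense-mediated decay, the pathway that destroys mRNAs with early stop codons, for 27 of the 53 tested members (50.9%), against 29.1% of all genes tested. By family these were 9 of 10 SR genes, 10 of 20 hnRNP genes, 1 of 9 SF3 genes, 4 of 11 U snRNP genes and 3 of 3 U2AF genes. A retained-intron transcript is listed for 77.4% of the members and 59.9% of all genes tested. These are properties of the annotation, and the median number of listed transcripts was 6 for the members and 5 for all genes tested. The deposited counts sum all transcripts of a gene, so the share of each was not analysed here.

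Of 19 factors of that decay pathway 2 rose and 1 fell (15.8%), where 31.0% of all genes tested changed. Smg1, the kinase that phosphorylates UPF1, was at 277, 269 and 317 CPM after WGP and at 241, 234 and 234 CPM after PBS (log2 fold change 0.28 ± 0.08, edgeR adjusted p = 0.018), and Dhx34 rose (0.31 ± 0.10, adjusted p = 0.035). Gspt1, a release factor of translation, fell (-0.37 ± 0.10, adjusted p = 0.017), at 52.9, 63.7 and 54.0 CPM after WGP and 81.1, 70.0 and 70.1 CPM after PBS. The groups did not overlap in any of the 3. Without PBS replicate 1 or WGP replicate 3 none of the 3 passed.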
